A study of Homo sapiens with 14 samples.

Results

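Genes that copy DNA in S phase were followed across 14 arrays of Kasumi-1, an acute myeloid leukaemia cell line with the t(8;21) translocation and its AML1-ETO (RUNX1-RUNX1T1) fusion gene. The set was a list of 39 genes chosen by name, for replication licensing, polymerases, nucleotide supply and related roles, out of 11963 genes with a probe set of their own on the array. A probe set of its own was found for 38 of the 39 (all but UHRF1), and 37 passed the filter on low signal. Each gene was read from 1 probe set, the one with the highest mean over the 14 arrays.

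All groups were this one cell line, harvested at 96 h. An siRNA against AML1-ETO was delivered with the lipid reagent Biorad siLentFect (3 arrays) or by Amaxa nucleofection, an electrical transfection (3 arrays). Control cells received an siRNA to firefly luciferase, by lipid (3 arrays) or nucleofection (2 arrays). There was 1 array of nucleofection without siRNA and 2 arrays of untransfected cells. The siRNA was at 240 nM with lipid and at 1.5 uM with nucleofection, so dose and method cannot be told apart. A single siRNA was used against the fusion. The labels did not say whether replicates were separate cultures, so p-values rest on a spread between arrays that could be technical only. In RNA from a whole culture, fewer cells in S phase and less RNA per S phase cell cannot be told apart.

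Replication begins with licensing, in which the origin recognition complex, CDC6 and CDT1 load the MCM2 to MCM7 helicase ring onto origins in G1. CDC45 and the GINS complex then join MCM2 to MCM7 into the active helicase, with MCM10 assisting the start. RPA coats the single strands, primase and polymerase alpha lay primers, and polymerases delta and epsilon, held by the PCNA clamp that the RFC complex loads, extend them. FEN1 and LIG1 finish the lagging strand, and ribonucleotide reductase, TYMS, TK1 and DUT serve the nucleotide pool. Many of these genes are known targets of the E2F factors, of which E2F1 is a member here, and their transcripts are known to be more abundant in dividing than in resting cells.

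The signals were the authors' intensities from the MAS5 software, on a linear scale, with the same mean of 138.5 on every array. Differences below are on a log2 scale after raising signals under 20 to 20, and "called" means a limma adjusted p below 0.05 over the 7178 genes tested. Replicate arrays correlated at 0.956 to 0.974 across genes, which are not independent replicates, and the median residual SD was 0.186 for the 37 genes and 0.24 for all tested genes (log2 scale). The targeted transcript, read from the RUNX1T1 probe set 205529_s_at, fell after AML1-ETO siRNA by nucleofection (-1.24 ± 0.17, SE; adjusted p = 0.00288). By lipid it was not called (-0.34 ± 0.16, SE; adjusted p = 0.999). The AML1-ETO lipid arrays, at 400 to 502, still lay under the luciferase lipid arrays, at 540 to 567 (4.95% of all tested genes did so). The difference between the methods was not called (0.90 ± 0.23, SE, adjusted p = 0.242). Of 9 measured Kasumi-1 and myeloid markers, 8 were above 20 on all 14 arrays. The ninth, CD38, read 6.97 to 30.7 with AML1-ETO nucleofection, 19.8 to 53.0 with luciferase lipid and 34.8 to 59.7 in the other 4 groups. Markers of other cells were mixed. Below 20 on all 14 arrays were 1 of 6 T cell (CD3G) and 1 of 5 B cell markers (CD79B). So were 2 of 4 erythroid (ALAS2, EPB42) and 3 of 11 fibroblast and epithelial markers (LUM, KRT19, CDH1). Above 20 on all 14 were 1, 1, 1 and 3 of these lists, among them EPCAM at 71.3 to 267.

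Most promoters of the set held an E2F-type motif. Promoter letters were not used to choose the genes, but many are known E2F targets, so this share is not independent of the choice. RefSeq promoters of GRCh38.p14, running from 250 bases before the start to 50 after it, were matched by symbol for 35 of the 39 genes. At least 1 of 2 E2F-type motifs, TTCCCGC or TTGGCGC on either strand, was found in 25 of the 35 (71.4%), against 908 of the 6005 promoters of tested genes (15.1%) and 9.33% of all 27305 promoters in the table. TTCCCGC alone was in 45.7% of the 35, 10.8% of the promoters of tested genes and 6.56% of all promoters. The shares for TTGGCGC were 34.3%, 5.1% and 3.12%. CCAAT, the core of NF-Y sites, was in 60% of the 35, 38.2% of the promoters of tested genes and 35.7% of all promoters. Of its 43 matches in the set, 7 overlapped an E2F-type motif, in 5 genes. Both motif kinds were in 17 promoters and neither was in 6. Such a match is a description of the letters, not a site.

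Promoter stretches of 6 genes named below are shown to make the motif visible in its setting. They are the first 6 on the list of named genes with an E2F-type motif before the start. Named genes without one were passed over. E2F1 and PCNA also had one but came later on the list, and RPA2 and RPA3 had no matched promoter. FEN1, POLD1 and MCM2 had neither motif kind in the window, and RRM2 had CCAAT only. FEN1 and POLD1 were called between lipid and nucleofection, whereas LIG1 and RRM1, which are shown, were called in no comparison. They lie at chr12:132687366-132687465 (POLE, minus strand), chr16:85688955-85689030 (GINS2, minus strand), chr17:1829791-1829890 (RPA1, plus strand), chr7:100101530-100101629 (MCM7, minus strand), chr19:48170403-48170502 (LIG1, minus strand) and chr11:4094435-4094534 (RRM1, plus strand), all before the annotated start in GRCh38.p14. Each is read 5′ to 3′ on the gene's strand. Capitals mark the motifs: GCGGGAA is TTCCCGC and GCGCCAA is TTGGCGC on the opposite strand. In POLE the capitals also hold CCAAT and its reverse complement ATTGG, which share letters with the E2F-type motif.
POLE: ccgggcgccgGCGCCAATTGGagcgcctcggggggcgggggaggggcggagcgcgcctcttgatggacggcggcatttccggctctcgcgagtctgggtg
GINS2: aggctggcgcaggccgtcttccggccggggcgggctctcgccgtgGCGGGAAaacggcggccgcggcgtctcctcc
RPA1: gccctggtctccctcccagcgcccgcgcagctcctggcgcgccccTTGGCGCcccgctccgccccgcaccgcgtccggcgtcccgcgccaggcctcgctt
MCM7: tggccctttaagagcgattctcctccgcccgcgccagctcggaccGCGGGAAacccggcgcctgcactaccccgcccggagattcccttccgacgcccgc
LIG1: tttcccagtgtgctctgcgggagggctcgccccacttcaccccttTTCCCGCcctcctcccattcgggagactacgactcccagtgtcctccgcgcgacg
RRM1: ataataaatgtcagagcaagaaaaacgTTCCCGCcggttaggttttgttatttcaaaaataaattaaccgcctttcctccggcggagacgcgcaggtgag

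The first question was whether AML1-ETO siRNA altered the replication genes against luciferase siRNA. None of the 37 was called, either as the mean of both methods (1.66% of all tested genes called), by nucleofection (2.62%), by lipid (0.125%) or in the difference between the methods (0.0557%). The count was also 0 in each of these with limma-trend, which lets the prior variance follow the signal. At an unadjusted p below 0.05 there were 5, 7, 3 and 5 of the 37, against 14.4%, 18.9%, 4.53% and 10.8% of all tested genes. The median difference was -0.14 as the mean of both methods (all tested genes -0.07), -0.21 by nucleofection (all -0.11) and -0.07 by lipid (all -0.03). As the mean of both methods the 95% interval of every one of the 37 lay within a 2-fold change either way, and that of 34 within 1.5-fold.

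By nucleofection most differences had the same sign. They were below 0 for 32 of the 37 genes (86.5%; 63.2% of all tested genes). All 3 AML1-ETO arrays lay under both luciferase arrays for 16 of the 37 (43.2%), against 25.3% of all tested genes, and all 3 lay over them for 0 of the 37, against 12% of all. The 16 were MCM2, MCM5 and MCM7 of the helicase ring, MCM10, GINS1 and GINS2 of origin firing, POLD1, RFC2, RFC4, RPA1, RPA2, FEN1, LIG1, RRM1, RRM2 and DUT. With arrays centred on their medians the median was -0.14 (all tested genes -0.03), 29 of the 37 were below 0 and 11 lay wholly under the luciferase arrays (29.7%; all genes 19.2%). With quantile normalization these values were -0.15 (all -0.04), 29 and 12 (32.4%; all 19.8%).

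**Figure D1:**
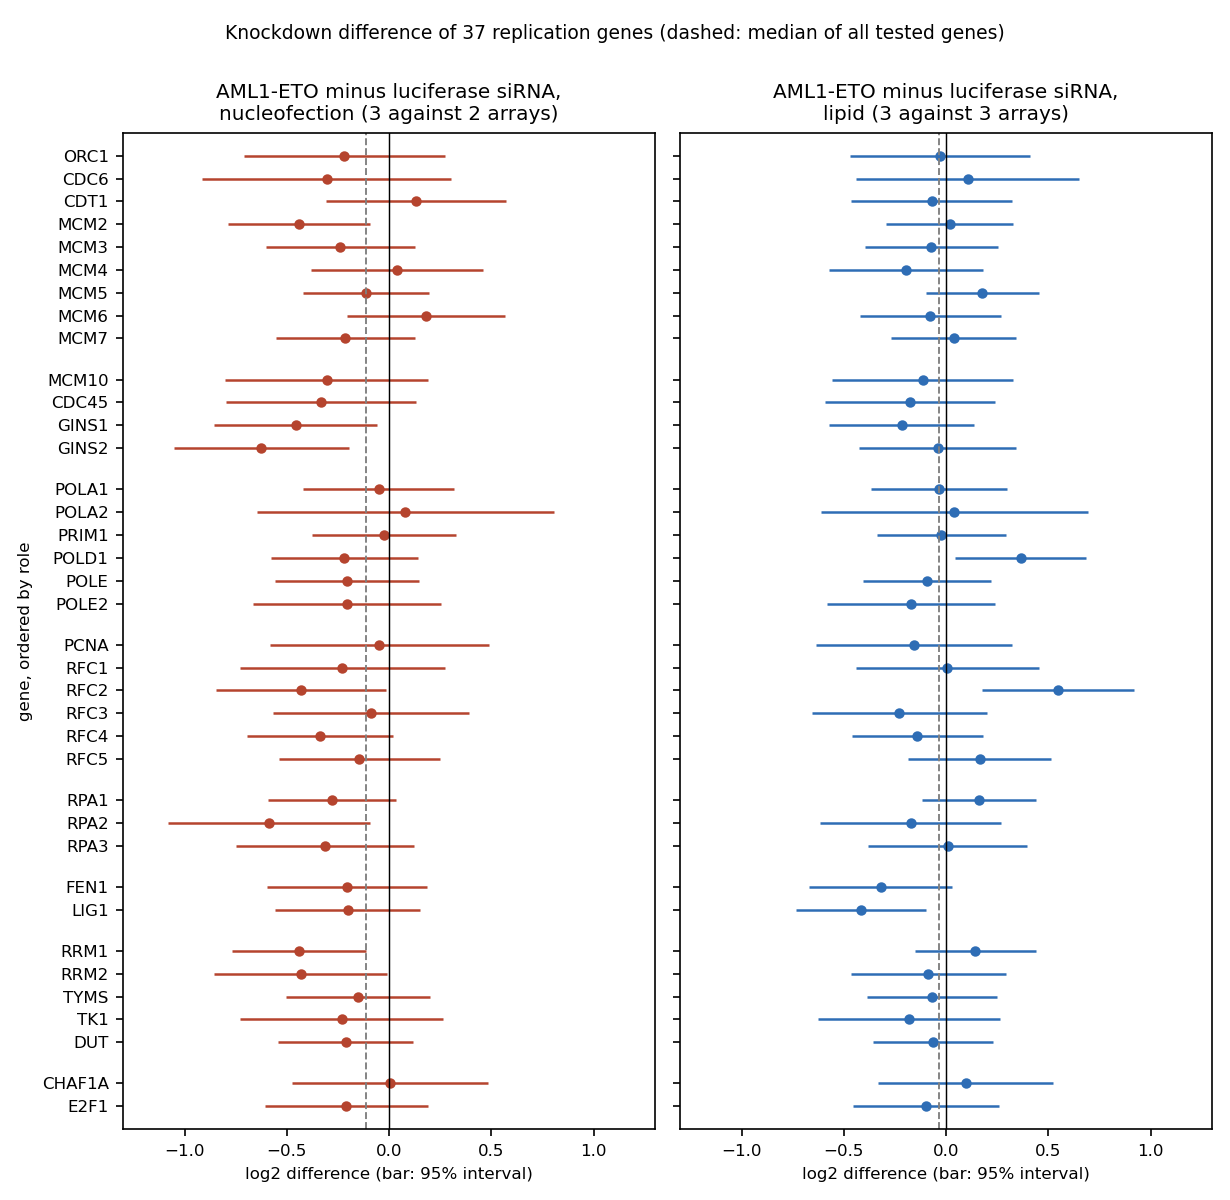
Log2 difference of AML1-ETO against luciferase siRNA for each of the 37 tested genes, by nucleofection on the left and by lipid on the right, ordered from licensing to chromatin copying. Points are limma estimates, bars their 95% intervals, and the dashed line is the median of all tested genes (-0.11 and -0.03). On the left 32 of 37 points are below 0, and on the right 24 are.

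The origin firing genes held the largest of these differences by nucleofection. GINS2, a subunit of the GINS complex (probe set 221521_s_at), read 162 and 185 with luciferase siRNA and 119, 114 and 104 with AML1-ETO siRNA. The AML1-ETO arrays were all lower, and also lower than the untransfected arrays (191 and 190). The difference was -0.62 ± 0.20 (SE), with an adjusted p of 0.122. By lipid GINS2 read 190, 216 and 267 with luciferase and 169, 236 and 253 with AML1-ETO siRNA, which overlap, and the difference was -0.04 ± 0.18 (SE; adjusted p = 0.999). GINS1, another subunit (206102_at), read 201 and 166 against 131, 135 and 134 by nucleofection, again without overlap, and differed by -0.46 ± 0.18 (SE; adjusted p = 0.203). By lipid GINS1 read 167, 158 and 178 with luciferase and 128, 131 and 178 with AML1-ETO siRNA, and the third AML1-ETO array was the highest of the 6. All 4 origin firing genes, with CDC45 (-0.33) and MCM10 (-0.31), had differences below 0 by nucleofection, and none was called.

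Among the licensing genes the range by nucleofection was -0.44 to 0.18, with 6 of 9 below 0. MCM2 (202107_s_at) read 1079 and 1211 with luciferase siRNA and 913, 885 and 738 with AML1-ETO siRNA. The 3 AML1-ETO arrays were the lowest of all 14, since the untransfected arrays read 1123 and 1149, the array without siRNA 1087 and the lipid arrays 1078 to 1339. The difference was -0.44 ± 0.16 (SE; adjusted p = 0.165), and by lipid it was 0.02 ± 0.14 (SE; adjusted p = 0.999). MCM6 stood at the other end with 0.18 ± 0.18 (SE), and CDT1, which helps load the ring, differed by 0.13 ± 0.20 (SE).

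For nucleotide supply all 5 genes had differences below 0 by nucleofection. RRM1, the large subunit of ribonucleotide reductase (201477_s_at), read 391 and 349 with luciferase siRNA and 252, 290 and 276 with AML1-ETO siRNA. The arrays did not overlap, with untransfected cells between them at 311 and 304, and the difference was -0.44 ± 0.15 (SE; adjusted p = 0.146). A second, dimmer RRM1 probe set differed by 0.11. RRM2, the small subunit (209773_s_at), read 650 and 719 against 539, 520 and 463, without overlap (-0.43 ± 0.20, SE; adjusted p = 0.257). The array without siRNA stood above all of these at 766. TYMS, TK1 and DUT differed by -0.15, -0.23 and -0.21, and none of the 3 was called.

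RPA2, a subunit of the single-strand binding complex (201756_at), read 326 and 311 with luciferase siRNA and 188, 245 and 207 with AML1-ETO siRNA by nucleofection. These arrays did not overlap, but the untransfected arrays at 312 and 212 spanned nearly the same range. The difference was -0.59 ± 0.23 (SE; adjusted p = 0.193), and by lipid it was -0.17 ± 0.21 (SE). The ligase LIG1 (202726_at) had differences below 0 by both methods and was called by neither. They were -0.42 ± 0.15 by lipid (SE; adjusted p = 0.901) and -0.20 ± 0.16 by nucleofection (SE; adjusted p = 0.547). With lipid the LIG1 signal was 196, 152 and 185 after luciferase and 128, 128 and 141 after AML1-ETO siRNA. With nucleofection it was 132 and 141 after luciferase and 129, 128 and 101 after AML1-ETO siRNA. It was the only one of the 37 whose arrays did not overlap in the same direction by both methods, a pattern held by 1.38% of all tested genes in that direction, and under either rescaling it no longer held, leaving 0 of the 37. The mean difference of LIG1 was -0.31 ± 0.11 (SE; adjusted p = 0.216).

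**Figure D2:**
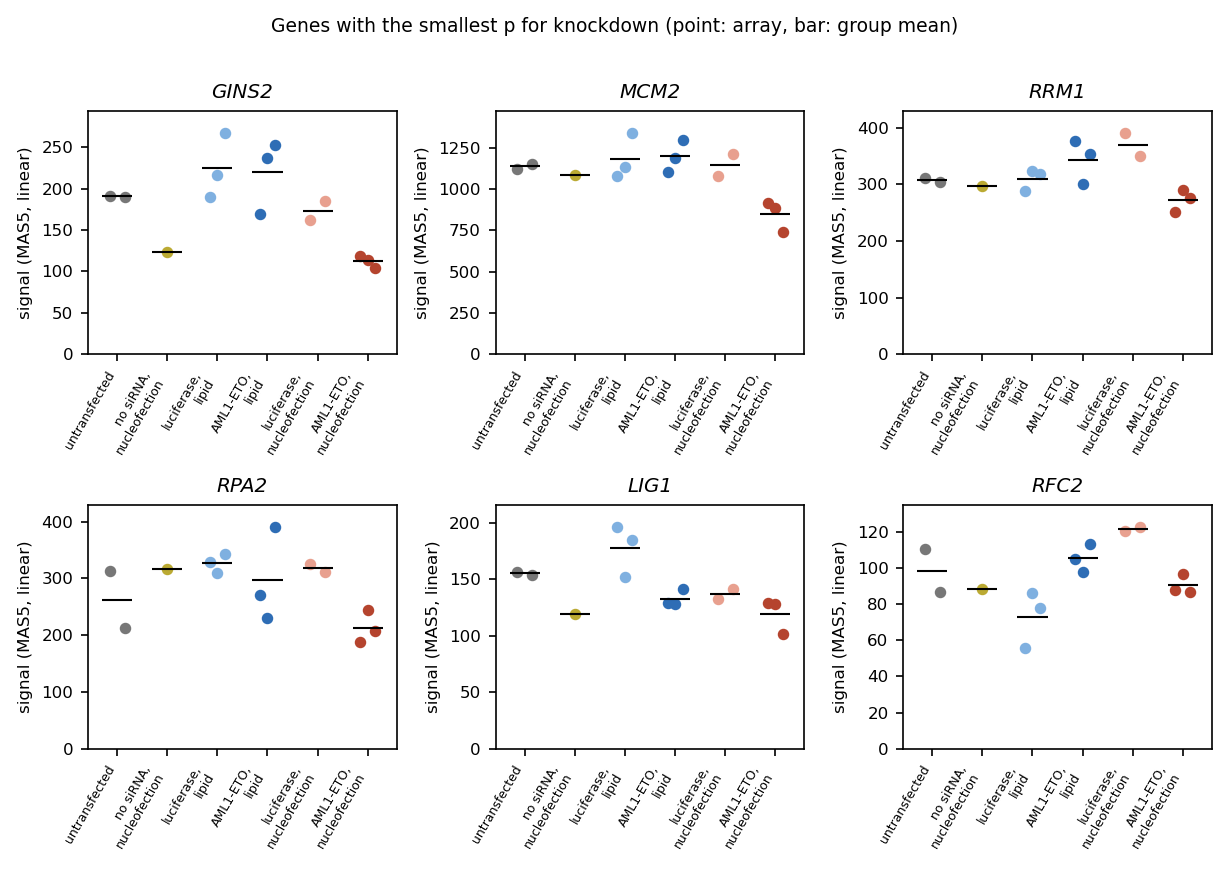
MAS5 signal on a linear axis from 0 for 6 genes, with 1 point per array and a bar at each group's mean. The 3 AML1-ETO nucleofection arrays lie under both luciferase nucleofection arrays in all 6 panels; in the RFC2 panel the lipid groups stand the other way round.

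By lipid 24 of the 37 differences were below 0 (64.9%; 57.1% of all tested genes). The AML1-ETO arrays lay wholly over the luciferase arrays for RFC2 and RPA1 (3.58% of all tested genes) and wholly under them for LIG1 (4.95%). RFC2, a clamp loader subunit described here after its values were seen, read 55.6, 86.1 and 77.6 with luciferase and 105, 97.7 and 113 with AML1-ETO siRNA. Its difference was 0.55 ± 0.17 by lipid (SE; adjusted p = 0.657) and -0.43 ± 0.19 by nucleofection (SE; adjusted p = 0.25). Lipid minus nucleofection, the RFC2 effect differed by 0.98 ± 0.26 (SE; adjusted p = 0.246), the smallest p of the 37 in that comparison. A second RFC2 probe set, dimmer, differed by 0.66 by nucleofection, against -0.43 for the first. Over the 37 genes the difference between methods had a median of 0.17 (all tested genes 0.06).

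E2F1 and PCNA arrays overlapped between the siRNAs by both methods. E2F1 (2028_s_at), the transcription factor of the set, read 65.9 and 78.0 with luciferase and 72.5, 63.5 and 52.0 with AML1-ETO siRNA by nucleofection, which overlap (-0.21 ± 0.18, SE; adjusted p = 0.584). By lipid it read 81.3, 80.2 and 63.7 against 69.1, 65.3 and 75.2 (-0.10 ± 0.17, SE). PCNA (201202_at) read 388 and 364 against 293, 455 and 362 by nucleofection (-0.05 ± 0.25, SE), and its AML1-ETO arrays held both the lowest and the highest value. By lipid it read 387, 447 and 396 against 304, 305 and 531 (-0.16 ± 0.22, SE). The 95% interval for PCNA by nucleofection ran from -0.58 to 0.49, so these arrays do not fix the sign or size of a difference within those bounds.

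Other measures moved with the nucleofection comparison. The log2 ratio of the 3′ to the 5′ GAPDH control probe sets, a sign of RNA integrity, was 0.246 and 0.0331 on the luciferase arrays and -0.181, -0.127 and -0.106 on the AML1-ETO arrays (exact two-sided permutation p = 0.1, the smallest that 3 against 2 arrays allow). With that ratio as a covariate 0 of the 37 were called and the median difference was -0.39 (all tested genes -0.26). The summed signal of the T cell marker list was 218 to 229 with luciferase and 111 to 156 with AML1-ETO siRNA by nucleofection, and that of the Kasumi-1 and myeloid list 9617 to 10760 and 11130 to 11520. Their part in the result was not tested.

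**Figure D3:**
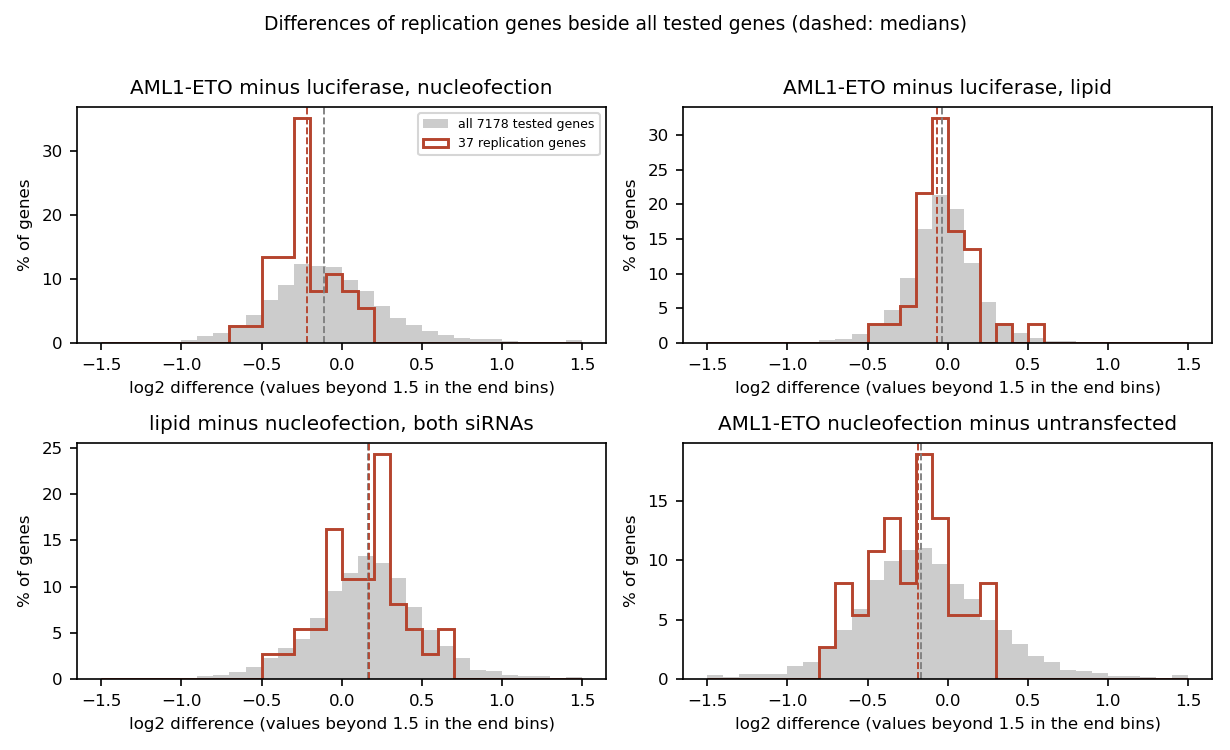
Share of genes by log2 difference in 4 comparisons, in steps of 0.1, for the 37 replication genes (red outline) and all 7178 tested genes (grey), with medians dashed. By nucleofection knockdown the red median is at -0.21 and the grey at -0.11; for lipid against nucleofection both are at 0.17.

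The second comparison set lipid against nucleofection, averaged over the AML1-ETO and luciferase siRNAs. In all, 7 of the 37 genes were called (18.9%), against 25.6% of all tested genes. Of these, 6 were higher with lipid, namely FEN1, POLE, GINS2, RPA1, MCM7 and RPA3 (22% of all tested genes were called higher), and POLD1 was lower (3.68%). The median difference was 0.17, the same as over all tested genes. The arrays lay wholly higher with lipid within both siRNAs for 6 of the 37 (16.2%; 16.1% of all tested genes), and wholly lower for 0 of the 37 (2.08%).

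This direction rested on the scaling. Centring the arrays on their medians took the median of all tested genes from 0.17 to -0.01, and that of the 37 to -0.002. Then 3 of the 37 were called higher and 4 lower, and over all genes 711 of 1318 calls were higher, in place of 1577 of 1841. With quantile normalization 3 of the 37 were called higher and 5 lower, and 634 of 1134 over all genes. FEN1, GINS2, POLE and POLD1 were called under all 3 scalings. RPA1, MCM7 and RPA3 were not called with either rescaling, while MCM5 (-0.31), POLE2 (-0.49) and RFC2 (-0.44) were called lower with lipid on centred arrays, and PRIM1 (-0.32) also with quantile normalization; MCM5, PRIM1 and RFC2 are named after their values were seen. The GAPDH ratio also differed between lipid and nucleofection, by -0.243 (exact two-sided permutation p = 0.00433, 6 against 5 arrays, smallest possible 0.00216). With it as a covariate 0 of the 37 and 17 of all tested genes were called. The ratio moved with the method, so this fit cannot tell them apart, and no conclusion is drawn from the lost calls.

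**Figure D4:**
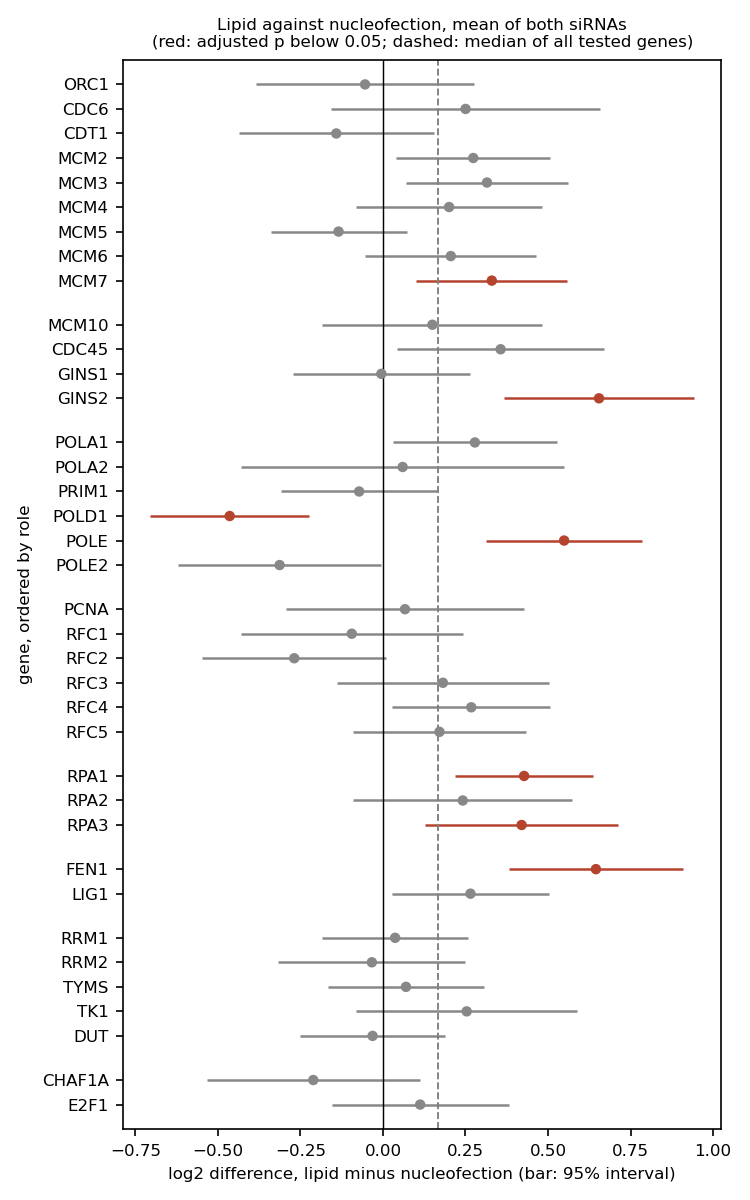
Log2 difference of lipid minus nucleofection, mean of both siRNAs, for the 37 genes in order of role, with 95% intervals. Red marks the 7 called genes, 6 above 0 and POLD1 below it, and the dashed line is the median of all tested genes, 0.17.

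FEN1, the flap endonuclease that trims Okazaki fragments (204768_s_at), had the smallest p. With luciferase siRNA it read 339, 290 and 298 by lipid and 185 and 194 by nucleofection. With AML1-ETO siRNA it read 232, 210 and 309 by lipid and 181, 170 and 144 by nucleofection. Every lipid array was above every nucleofection array, the untransfected arrays stood at 246 and 257, and the array without siRNA stood at 173, beside the nucleofected ones. The difference was 0.65 ± 0.12 (SE; adjusted p = 0.0031), and 0.47 on centred arrays (adjusted p = 0.0104). The other FEN1 probe set, nearly as bright, differed by 0.17.

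POLE, the catalytic subunit of polymerase epsilon (216026_s_at), read 185, 179 and 171 by lipid and 144 and 111 by nucleofection with luciferase siRNA. With AML1-ETO siRNA it read 158, 159 and 186 by lipid and 98.7, 110 and 122 by nucleofection. Here the lowest lipid array was above the highest nucleofection array, and untransfected cells, at 180 and 177, were within the lipid range. The difference was 0.55 ± 0.11 (SE; adjusted p = 0.00404; 0.38 and 0.0259 on centred arrays). GINS2, with the values above, differed by 0.65 ± 0.13 (SE; adjusted p = 0.00447; 0.48 and 0.0138 on centred arrays), and its lipid and nucleofection arrays did not overlap within either siRNA.

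RPA1, the large subunit of the single-strand binding complex (201529_s_at), read 151, 141 and 161 by lipid and 136 and 125 by nucleofection with luciferase siRNA. With AML1-ETO siRNA it read 169, 167 and 170 by lipid and 113, 116 and 95.2 by nucleofection. Between methods the arrays did not overlap, and the gap was wider with AML1-ETO siRNA, though the difference between the gaps was not called (0.44 ± 0.19, SE; adjusted p = 0.44). The difference between methods was 0.43 ± 0.10 (SE; adjusted p = 0.00786) as deposited and 0.26 on centred arrays (adjusted p = 0.0708). A second RPA1 probe set differed by 0.41. RPA3, the small subunit (209507_at), read 114, 152 and 135 by lipid and 103 and 120 by nucleofection with luciferase siRNA. With AML1-ETO siRNA it read 124, 137 and 140 by lipid and 69.6, 90.8 and 113 by nucleofection, so that the methods overlapped with luciferase only. RPA3 differed by 0.42 ± 0.14 (SE; adjusted p = 0.0381), and the call was lost at an adjusted p of 0.0548 to 0.136 without either luciferase nucleofection array, without replicate 2 or 3 of luciferase lipid or of AML1-ETO lipid, or without replicate 1 or 2 of AML1-ETO nucleofection.

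MCM7, a subunit of the helicase ring (208795_s_at), read 649, 662 and 828 by lipid and 650 and 582 by nucleofection with luciferase siRNA, which overlap narrowly. With AML1-ETO siRNA it read 805, 697 and 685 by lipid and 511, 566 and 516 by nucleofection, with no overlap. MCM7 differed by 0.33 ± 0.11 (SE; adjusted p = 0.0375), and the call was lost at an adjusted p of 0.0521 to 0.124 without either luciferase nucleofection array, without replicate 2 or 3 of luciferase lipid, without replicate 1 of AML1-ETO lipid, or without replicate 1 or 3 of AML1-ETO nucleofection. Its second probe set differed by 0.30. The 4 probe sets of MCM4 ranged from -0.82 to 0.52 in this comparison, so no direction can be read for that ring subunit.

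POLD1, the catalytic subunit of polymerase delta (203422_at), ran the other way. With luciferase siRNA it read 106, 139 and 127 by lipid and 204 and 213 by nucleofection. With AML1-ETO siRNA it read 164, 136 and 180 by lipid and 178, 178 and 181 by nucleofection. All luciferase lipid arrays were below the luciferase nucleofection arrays, while with AML1-ETO siRNA the highest lipid array lay among the nucleofected ones. The difference was -0.46 ± 0.11 (SE; adjusted p = 0.0102; -0.64 and 0.00176 on centred arrays). Untransfected cells read 162 and 176, below luciferase nucleofection and above luciferase lipid.

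**Figure D5:**
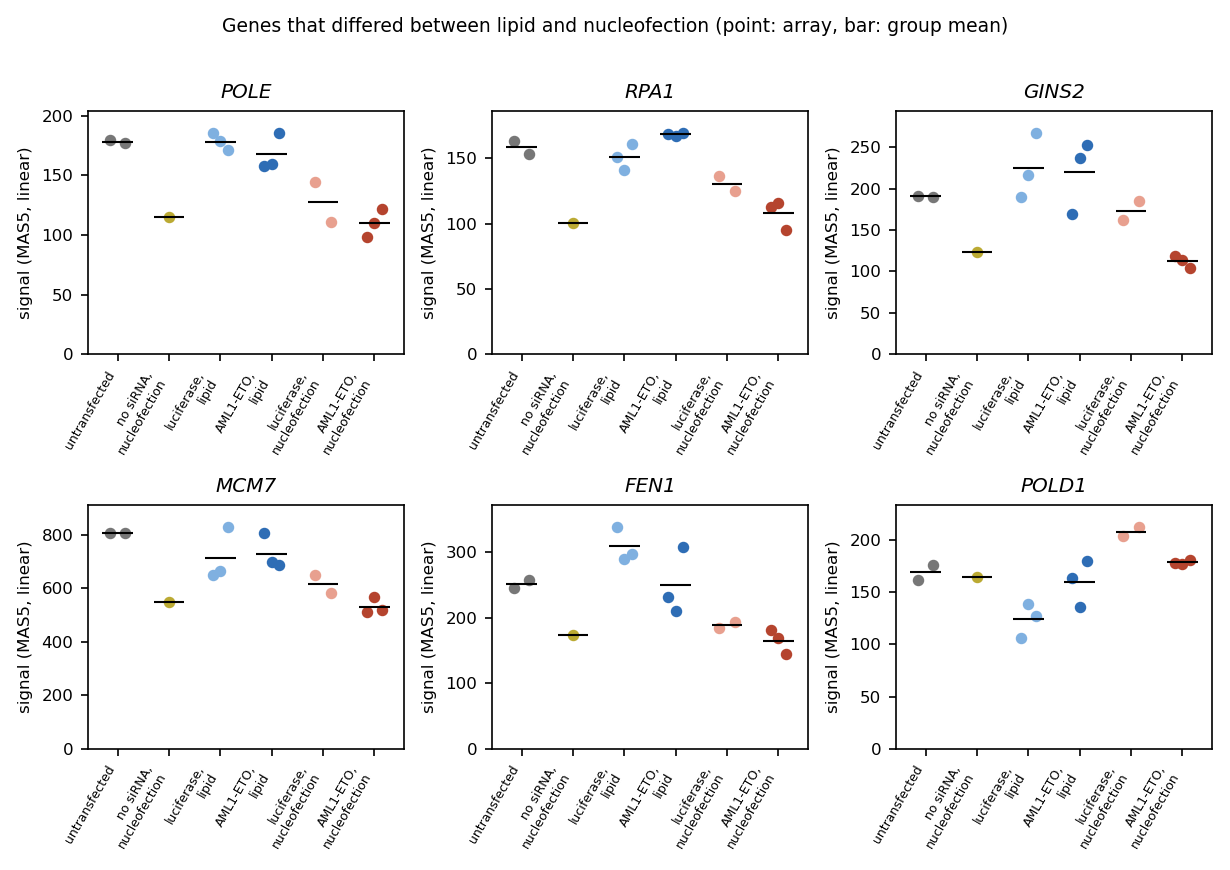
MAS5 signal on a linear axis from 0 for 6 of the 7 genes called between lipid and nucleofection, with 1 point per array and a bar at each group's mean. In the POLE, RPA1, GINS2 and FEN1 panels the nucleofected arrays lie under the lipid arrays of the same siRNA, and in the POLD1 panel the luciferase groups stand in the reverse order.

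The array of nucleofection without siRNA is a single sample and was not tested. For the 6 genes called higher with lipid it read 173 (FEN1), 115 (POLE), 123 (GINS2), 101 (RPA1), 550 (MCM7) and 116 (RPA3). It was below every lipid array for 5 of the 6, all but RPA3, and below both untransfected arrays for all 6. These 6 were chosen for lower values with nucleofection. Over the 37 genes it was below every lipid array for 9, above every one for 7 and within their range for 21. It was below both untransfected arrays for 17 of the 37 and above both for 12. The same counts over all tested genes are not given here, so no result about the set is read from them. The 7 above every lipid array included TYMS and RRM2, and POLD1 at 165 was within the lipid range.

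The sum of a further marker list moved with the method. The summed signal of fibroblast and epithelial markers was 312 to 379 on the nucleofected arrays, 463 to 523 on the lipid arrays and 506 to 515 on untransfected arrays. Its brightest gene, EPCAM, read 71.3 to 155 on the nucleofected, 181 to 239 on the lipid and 219 to 267 on the untransfected arrays. COL1A1 overlapped, at 33.0 to 105 on the nucleofected and 64.2 to 111 on the lipid arrays. LUM, KRT19 and CDH1 were below 20 throughout, and the part of this list in the results was not tested. The Kasumi-1 and myeloid sum was 9617 to 11520 by nucleofection and 9803 to 11780 by lipid.

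Against untransfected cells, AML1-ETO siRNA by nucleofection was the one group of the 4 in which any of the 37 genes was called. There, 4 of the 37 were called (10.8%; 8.15% of all tested genes), all lower (6.42%): POLE (-0.70 ± 0.16, SE; adjusted p = 0.0228), RPA1 (-0.56 ± 0.14, SE; adjusted p = 0.0356), GINS2 (-0.76 ± 0.20, SE; adjusted p = 0.0358) and MCM7 (-0.60 ± 0.16, SE; adjusted p = 0.0359). The untransfected arrays of MCM7 read 805 and 807, those of RPA1 164 and 154, and those of POLE and GINS2 are given above, so all 3 nucleofected arrays were lower for each. FEN1 missed the threshold (-0.61 ± 0.18, SE; adjusted p = 0.0554). The median of the 37 was -0.19 (all tested genes -0.17). All 3 arrays lay under both untransfected ones for 16 of the 37 (43.2%, against 33.4% of all). They lay over both for MCM5, POLD1 and POLE2 (10.8% of all). Luciferase nucleofection had 2 arrays in place of 3 and larger SEs (0.18 against 0.16 for POLE). Between the AML1-ETO and luciferase nucleofection groups 0 of the 37 were called, so the calls here do not set these groups apart.

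These 4 calls changed with the scaling, with single arrays and, for RPA1 and GINS2, with the choice of probe sets or the filter. None of the 37 was called on centred arrays, where the median of all tested genes moved to -0.01 and POLE stood at -0.55 (adjusted p = 0.0572), GINS2 at -0.61 (adjusted p = 0.0543), RPA1 at -0.41 (adjusted p = 0.101) and MCM7 at -0.45 (adjusted p = 0.117), nor with quantile normalization. The count was 0 without untransfected replicate 1 or 3 or AML1-ETO nucleofection replicate 1, and 1 without AML1-ETO nucleofection replicate 3 or luciferase lipid replicate 2. GINS2 was also lost without AML1-ETO nucleofection replicate 2 (adjusted p = 0.0627) and with no filter on low values (adjusted p = 0.0624). RPA1 was lost when all probe sets of a gene were averaged (-0.42 ± 0.16, SE; adjusted p = 0.11). Its other probe set differed by -0.28, against -0.56 for 201529_s_at. With the GAPDH ratio as a covariate both were lost (adjusted p = 0.0555 for RPA1 and 0.0625 for GINS2). The summed signal of B cell markers moved with this comparison too: it was 133 to 161 on the AML1-ETO nucleofection arrays and 80.6 to 92.4 on the untransfected ones, with 1 of its 5 measured genes, CD79B, below 20 on all arrays, and its part in the calls was not tested.

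In the other groups against untransfected cells 0 of the 37 genes were called. For luciferase nucleofection, where 5.14% of all tested genes were called, 3 of the 37 had an unadjusted p below 0.05 (23.2% of all): POLE (-0.49 ± 0.18, SE; adjusted p = 0.121), MCM7 (-0.39 ± 0.17, SE; adjusted p = 0.194) and POLE2 (0.50 ± 0.23, SE; adjusted p = 0.215). POLE2, an accessory subunit of polymerase epsilon (205909_at), read 107 and 106 on the luciferase nucleofection arrays and 73.0 and 76.8 on the untransfected ones, while the array without siRNA read 100. Its AML1-ETO nucleofection arrays read 85.3, 115 and 79.8, and the lipid arrays 55.8 to 89.7. The median over the 37 was 0.01 for luciferase nucleofection (all tested genes -0.06), 0.03 for luciferase lipid (all 0.07; 0% called, 2 of the 37 and 3.72% of all at an unadjusted p below 0.05) and -0.0004 for AML1-ETO lipid (all 0.04; 0.111% called, 0 of the 37 and 5.84% of all at an unadjusted p below 0.05). With limma-trend the counts of called genes were again 0 in these 3 comparisons.

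The level of the set as a whole differed between arrays of one group as well. Taking each gene's deviation from its own mean over the 14 arrays, the median over the 37 was lowest on the AML1-ETO nucleofection arrays at -0.121, -0.0859 and -0.269 (all tested genes -0.167, -0.0448 and -0.172). It was highest on AML1-ETO lipid replicate 3 at 0.262 (all genes 0.214), while the other 2 arrays of that group were at -0.0435 and -0.0642. CHAF1B, a chromatin assembly subunit, was the member under the filter: its signal was 34.0 and 21.8 in untransfected cells, 37.5 without siRNA and 22.8 to 33.6 with luciferase lipid. It was 13.5 to 25.4 with AML1-ETO lipid, 5.62 and 6.41 with luciferase nucleofection and 4.37 to 20.2 with AML1-ETO nucleofection, mostly at or below the floor. POLA2, the polymerase alpha accessory subunit with a geometric mean of 49.1, was the nearest inside the filter, against 24.1 for CHAF1B.

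Genes of neighbouring pathways were read against the same knockdown comparisons. As the mean of both methods, 0 of 38 other replication genes, 0 of 24 other nucleotide synthesis genes, 0 of 20 E2F and G1/S control genes and 0 of 32 mitosis genes were called (1.66% of all tested genes), with 5, 4, 3 and 5 at an unadjusted p below 0.05 (14.4% of all). By nucleofection 0, 1, 2 and 0 were called, against 2.62% of all tested genes. There CTPS1, which makes CTP, fell (-0.70 ± 0.16, SE; adjusted p = 0.0412), as did CCNE2, the cyclin E2 that drives entry into S phase (-0.72 ± 0.16, SE; adjusted p = 0.0371), and CCND2, cyclin D2 (-0.62 ± 0.14, SE; adjusted p = 0.044). CCNE2 stood at 0.50 ± 0.14 (SE; adjusted p = 0.53) by lipid, and the difference between the methods was 1.22 ± 0.21 (SE; adjusted p = 0.0637). The phosphatase gene CDC25A differed by -1.43 ± 0.37 (SE; adjusted p = 0.0628) by nucleofection, and the mitotic TPX2 by -0.62 ± 0.17 (SE; adjusted p = 0.0778). TOP2B, which had the smallest p of the other replication genes, went the other way (0.84 ± 0.21, SE, adjusted p = 0.0592). Under either rescaling 1 of the 38 other replication genes was called higher and 0 lower, by nucleofection and as the mean of both methods. The medians by nucleofection were -0.19, -0.21, -0.21 and -0.25 in the 4 lists, against -0.11 over all tested genes. CTPS1 stayed called under both rescalings, as did CCND2, while CCNE2 was not called on centred arrays (adjusted p = 0.0679). With the GAPDH ratio as a covariate none of the 3 was called (adjusted p = 0.246 to 0.32). The ratio moved with the siRNA by nucleofection, so that fit cannot tell them apart. Of the 14 fits that left out 1 array each, CTPS1 was called in 6, CCNE2 in 7 and CCND2 in 2, with adjusted p up to 0.262, 0.226 and 0.216. All 3 were lost without either luciferase nucleofection array, any luciferase lipid array, or replicate 1 or 3 of AML1-ETO nucleofection. CTPS1 and CCND2 were also lost without replicate 1 of AML1-ETO lipid, and CCND2 also without replicate 2 of AML1-ETO lipid, replicate 2 of AML1-ETO nucleofection or either untransfected array.

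Between lipid and nucleofection, 10 of 38 other replication genes were called, 9 of them higher with lipid, where 25.6% of all tested genes were called and 22% called higher. The 6 of 24 nucleotide synthesis genes, 3 of 20 G1/S genes and 6 of 32 mitosis genes that were called were all higher as deposited. None of these 4 counts stood clearly above the share of all genes. On centred arrays the calls were 4 higher and 4 lower among other replication genes and 1 and 0 for nucleotide synthesis. For G1/S control they were 2 and 0 and for mitosis 2 and 1. With the GAPDH covariate there were 0 in all 4 lists, but that ratio moved with the method. The smallest p among other replication genes was that of the histone chaperone NASP (0.65 ± 0.11, SE; adjusted p = 0.0014), and GINS4, another GINS subunit, was lower (-0.48 ± 0.16, SE; adjusted p = 0.0487). Among G1/S genes, CDKN2A, which encodes the p16 inhibitor, was higher by 1.11 ± 0.13 (SE; adjusted p = 0.000203) and CDK4, the kinase it inhibits, by 0.73 ± 0.09 (SE; adjusted p = 0.000278). CENPF led the mitosis genes (1.00 ± 0.13, SE; adjusted p = 3e-04). NASP, GINS4, CDKN2A, CDK4 and CENPF kept their direction and call on centred arrays and with quantile normalization. Against untransfected cells, AML1-ETO nucleofection had lower CDKN2A (-1.56 ± 0.20, SE; adjusted p = 0.000882), CDK4 (-0.98 ± 0.14, SE; adjusted p = 0.00129) and CCND2 (-0.63 ± 0.14, SE; adjusted p = 0.0207), and 5 of 32 mitosis genes were called lower (6.42% of all tested genes), led by PRC1 (-0.83 ± 0.17, SE; adjusted p = 0.0133). That count of 5 was 2 on centred arrays and 1 with quantile normalization. On centred arrays CDKN2A, CDK4 and PRC1 were still called and CCND2 was not (adjusted p = 0.0576). Luciferase nucleofection against untransfected cells also had lower CDKN2A (-1.11 ± 0.22, SE; adjusted p = 0.0138) and CDK4 (-0.71 ± 0.15, SE; adjusted p = 0.0184). There 0 of 32 mitosis genes were called (5.14% of all tested genes), and PRC1 differed by -0.46 ± 0.19 (SE; adjusted p = 0.161). In the same comparison 3 of the 38 other replication genes were called. DSCC1 (1.245 ± 0.284, SE, adjusted p = 0.027) and WDHD1 (1.072 ± 0.259, SE, adjusted p = 0.0339) were higher. NASP was lower (-0.77 ± 0.18, SE, adjusted p = 0.0272). With AML1-ETO nucleofection 1 of the 38 was called higher, DSCC1 (0.99 ± 0.26, SE, adjusted p = 0.0373), and 3 lower (8.15% of all tested genes called).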

How the data were processed

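Values were MAS5 intensities as the authors deposited them, 1 for each probe set on each array; MAS5 is named in the submitters' processing notes, and its version is not given in the sources used here. Of 22283 probe sets, 19071 had 1 gene symbol in the platform annotation, 1043 had several and 68 were controls. All arrays had the same mean, so a shift shared by all genes cannot be seen. Intensities under 20 were raised to 20 and log2 was taken. Each gene took its brightest probe set, and the upper 60% of genes by mean signal (at least 26.6) were tested. In R 4.3.3, limma 3.58.1 (lmFit, eBayes) was fitted to 6 group means over 14 arrays (8 residual degrees of freedom, prior 4.65), with Benjamini-Hochberg adjustment over 7178 genes and calls below 0.05. Intervals are at 95%. The number of arrays limits the precision. Replicate 3 of luciferase nucleofection and replicate 2 of untransfected cells were not analysed here.

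The members and lists were chosen with earlier results of these data known. Named were called members, the 4 with the smallest p for knockdown (mean and nucleofection), for lipid against nucleofection and for luciferase nucleofection against untransfected cells, and E2F1, PCNA and RRM2, with up to 3 genes per related list and comparison. Promoters came from RefSeq (GRCh38.p14). The alternatives changed scaling, floor, filter, probe sets, variance model, arrays fitted, replicate block, array weights, GAPDH covariate and single arrays. Same-numbered arrays did not deviate together (22 pairs, correlation -0.287 to 0.0529), so the numbers do not pair them. The fit was tested on simulated data. Python 3.11.15, pandas 2.3.3, numpy 2.4.6 and matplotlib 3.10.9 were used.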

Additional observations from a re-analysis of the deposited data

How the results depend on the processing

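Over 25 alternatives, 14 of which left out 1 array, the count of called replication genes stayed at 0 for knockdown (mean, nucleofection, lipid and the difference between the methods) and for luciferase nucleofection, luciferase lipid and AML1-ETO lipid against untransfected cells. For lipid against nucleofection the count of 7 was 5 to 7 without single arrays. It was highest with limma-trend, at 10, and was 0 with the GAPDH ratio as a covariate. That ratio moved with the method, so the covariate fit cannot tell them apart. For AML1-ETO nucleofection against untransfected cells the count of 4 was 0 with quantile normalization and with arrays centred on their medians. It was also 0 with only the arrays of the groups compared and with the replicate block. The count was 2 with the GAPDH covariate and 0 to 5 without single arrays, and was highest with limma-trend, at 6. The cause was not tested. With the block the count for lipid against nucleofection was 6, and the counts of the other 7 comparisons stayed at 0, but the numbers do not pair these samples. FEN1 in luciferase nucleofection against untransfected cells went from -0.41 to 0.0285 with the GAPDH covariate. Groups of 2 or 3 arrays leave wide intervals: by nucleofection those of 16 of the 37 genes lay within a 1.5-fold change.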
